A study of Mus musculus with 6 samples.

Results

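The genes described here are 9 members of the mouse ADP-ribosyl transferase system, chosen by gene symbol: *Parp1*, *Parp2*, *Parp8*, *Parp9*, *Parp10*, *Parp11*, *Parp12*, *Parp14* and *Dtx3l*. All 9 symbols were found among the 26835 genes measured in bone marrow-derived macrophages. K7M2-EV cells were given 10 µg of vesicles released by K7M2, an osteosarcoma line of the mouse, and PBS cells were given phosphate-buffered saline, each for 24 h. Each group held 3 biological replicates from what the design text calls independent experiments, and all cells were wild type. The macrophages were primary cells from BALB/C mice aged 5 to 8 weeks, grown for 6 days in serum and M-CSF (25 ng/ml), the growth factor that drives macrophage differentiation. The control was PBS, and vesicles from other cells were not among the samples. The labels do not say whether marrow from several mice was pooled.

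ADP-ribosyl transferases take ADP-ribose from NAD+ and attach it to proteins or nucleic acids, either as chains (PARylation) or as a single unit (MARylation). PARP1 and PARP2 bind broken DNA and build chains that recruit repair factors. A second set, which includes PARP9, PARP10, PARP11, PARP12 and PARP14, mostly adds single units or is catalytically weak. Many of its genes are interferon-stimulated and act in antiviral and macrophage signalling. DTX3L is not a PARP but an E3 ubiquitin ligase of the Deltex family that works as a complex with PARP9. It is counted here with the interferon-type genes, and *Parp8*, which encodes a transferase of single units with a poorly known role, is kept apart from both kinds.

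The members' genome positions are on GRCm38 (GENCODE M21), and all 9 are annotated as protein-coding. *Parp14* (chromosome 16, 35832874 to 35871544, minus strand), *Dtx3l* (35926511 to 35939151, minus strand) and *Parp9* (35938470 to 35972605, plus strand) lie within 139.732 kb of one another. *Dtx3l* and *Parp9* are transcribed away from each other, and their gene bodies share 682 bases. Their exons share 458 bases, which is 9.40% of the *Parp9* exon length and 8.00% of that of *Dtx3l*. *Parp11* and *Parp12* are both on chromosome 6, at 127446840 to 127494261 and 39086410 to 39118349. *Parp10* is on chromosome 15 (76231174 to 76243441), where 4.80% of its exon length is shared with *Plec* on the same strand. *Parp1* is on chromosome 1 (180568924 to 180601254), *Parp2* on chromosome 14 (50807841 to 50821301) and *Parp8* on chromosome 13 (116854820 to 117025537). No source used here gives the strand setting of the counting, so reads from the shared exon bases of these genes cannot be told apart.

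Promoter sequence from RefSeq (GRCm38.p6) was at hand for 6 of the 9 members, with 7 windows in all because *Parp11* has more than 1 annotated start. *Parp9*, *Parp10* and *Parp14* had no entry in the table. The 250 bases before each start were searched on both strands for 4 motif cores. The first was GAAA, any 2 bases and GAAA again, the core of the interferon-stimulated response element bound by IRF and STAT complexes. The others were TTCNNNGAA, the STAT core of the gamma-activated element, GGG with any 2 bases and TTTCC for NF-κB, and TTTNNCGC for E2F, the factor family that drives S phase genes. Among 32851 RefSeq windows of the same length, 2.98% held the interferon core, 7.02% the STAT core, 1.41% the NF-κB core and 4.28% the E2F core. The upstream *Parp11* start was the only member window with any match. Its interferon core, 44 bases before the start, overlapped a STAT core at 37 bases, and an NF-κB core began 120 bases before the start. The windows of *Parp1*, *Parp2*, *Parp8*, *Parp12*, *Dtx3l* and the second *Parp11* start held none of the 4 letter patterns. Of 7 windows of other PARP family genes, that of *Parp4* held a pair of overlapping interferon cores, 150 and 144 bases before the start, and that of *Parp3* an E2F core 21 bases before it. The following sequences show the matched windows of *Parp11* and *Parp4* beside *Parp12* and *Parp1*, each without a match. Matches are in capitals, and annotated exon bases at the window edges are left out.
Parp11 (chr6:127446590-127446839, plus strand): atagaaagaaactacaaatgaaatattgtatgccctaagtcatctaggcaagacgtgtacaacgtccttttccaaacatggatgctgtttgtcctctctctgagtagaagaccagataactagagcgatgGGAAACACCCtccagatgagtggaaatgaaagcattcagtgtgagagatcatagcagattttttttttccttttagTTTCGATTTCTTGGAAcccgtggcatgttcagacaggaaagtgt
Parp4 (chr14:56575426-56575618, plus strand): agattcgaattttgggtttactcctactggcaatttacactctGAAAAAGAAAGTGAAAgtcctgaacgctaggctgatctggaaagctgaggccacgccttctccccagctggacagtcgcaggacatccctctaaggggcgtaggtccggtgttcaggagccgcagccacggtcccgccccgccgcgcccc
Parp12 (chr6:39118350-39118472, minus strand): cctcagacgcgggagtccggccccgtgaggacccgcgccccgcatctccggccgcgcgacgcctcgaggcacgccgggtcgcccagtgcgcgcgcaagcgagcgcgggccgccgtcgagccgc
Parp1 (chr1:180568641-180568890, plus strand): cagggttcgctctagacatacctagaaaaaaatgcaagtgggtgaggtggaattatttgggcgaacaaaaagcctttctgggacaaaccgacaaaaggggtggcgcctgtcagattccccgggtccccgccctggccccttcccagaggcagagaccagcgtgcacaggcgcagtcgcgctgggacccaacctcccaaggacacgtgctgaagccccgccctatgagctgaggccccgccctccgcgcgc

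The values are FPKM, fragments scaled to exon length and library total, so levels can be compared between genes. The spacing of the low values implied 22191247 to 24091954 reads in the K7M2-EV libraries and 21339459 to 25699150 reads in the PBS libraries. Each member was then backed by 238 to 9408 reads in every library, a counting error of 1.03% to 6.48%. All 10 macrophage markers, among them *Adgre1* and *Csf1r*, were at 1 FPKM or more in every library, and their sum ran from 13654 to 15149 FPKM in K7M2-EV and from 5303 to 6559 FPKM in PBS libraries. Of the 10, 7 rose, *Mertk* was not called, and 2 fell, *Cd68* to 202 ± 11.7 FPKM with vesicles, against 411 ± 35.3 FPKM with PBS, and *Ctss* to 896 ± 65.3 FPKM, against 1262 ± 187 FPKM. The lysozyme gene *Lyz2* made up most of the sum, at 10862 and 3746 FPKM on average. Markers of T and NK, B, dendritic and erythroid cells summed to 1.19 FPKM or less per list in every library. Of 10 neutrophil markers with values, 4 were tested, and *S100a8*, *Mmp8* and *Camp* rose. The sum of the 10 ran from 54.7 to 69.4 FPKM with vesicles and from 5.62 to 7.97 FPKM with PBS. *S100a9* was not called, at 0.171, 0.124 and 1.26 FPKM with vesicles and 1.06, 1.29 and 0 FPKM with PBS. The others, *Mpo*, *Prtn3*, *Ltf*, *Ngp*, *Ly6g* and *Retnlg*, were below 1 FPKM in every library. The sum of the 12 mesenchymal or osteosarcoma markers was highest in replicate 2 of both groups, at 754 and 519 FPKM, though not each marker was. This sum was 279 and 293 FPKM in the other K7M2-EV and 216 and 255 FPKM in the other PBS libraries. The part of these cells in the results on the members was not tested. In bulk RNA, fewer cells of a type and less RNA per cell cannot be told apart.

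Most interferon-type genes were higher with vesicles, and neither DNA damage gene was. *Parp14*, *Parp12*, *Parp9*, *Parp10* and *Dtx3l* rose by 1.92- to 2.61-fold in mean FPKM. *Parp2* and *Parp8* fell to 0.748 and 0.725 of their PBS means, and *Parp1* was level at a ratio of 1.00. Of the 9 members, 5 were called higher and 2 lower (limma on log2(FPKM + 1), Benjamini-Hochberg adjusted p under 0.05 over 13009 genes). All 9 passed the filter of 1 FPKM in 3 libraries, and each was at or above 1 FPKM in all 6. Over all genes tested, 18.4% were called higher, 35.6% lower and 54.0% in either direction. Set against these shares, 5 of 9 higher was above the background and 2 of 9 lower was below it. The members were chosen with earlier results of these data known, so this comparison is a description and not a test. In 6 members every K7M2-EV library was above every PBS library, as in 21.8% of all genes, and in 2 it was below, as in 42.0%. The median log2 fold change was 0.88 over the 9 members and -0.12 over all genes tested.

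**Figure D1:**
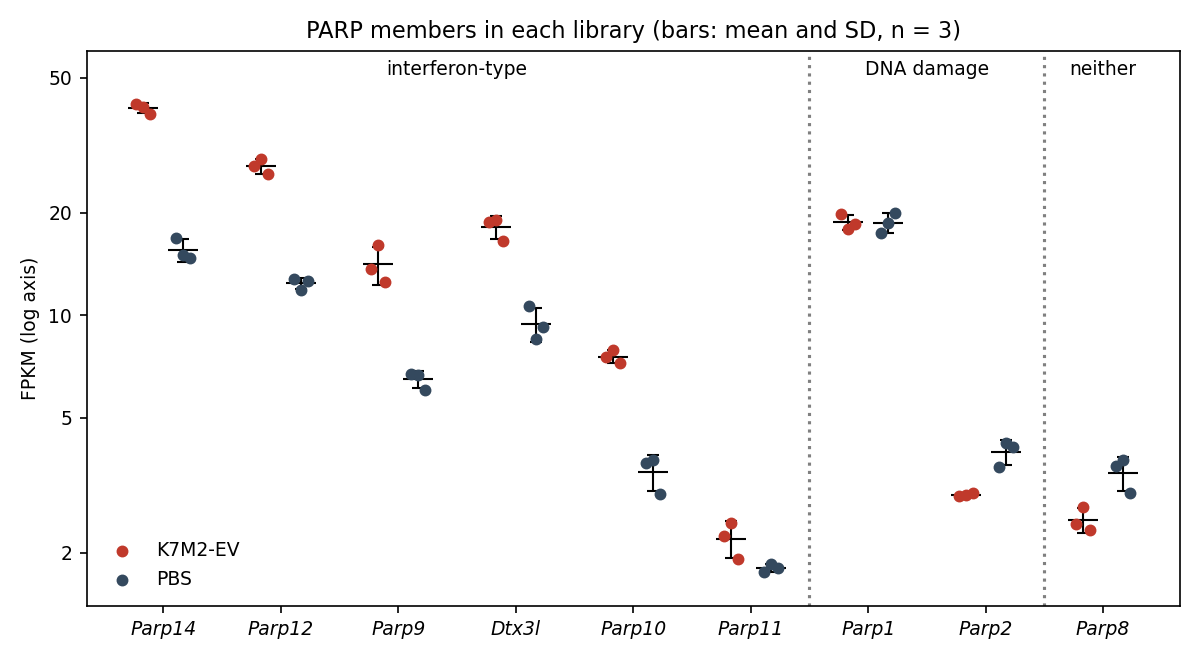
FPKM of each member in each library on a log axis, K7M2-EV in red and PBS in dark blue, with the mean and SD of 3 libraries. The groups do not overlap in 8 of 9 members, 6 above PBS and 2 below, beside 21.8% above and 42.0% below over all genes tested. *Parp1* sits between 17.5 and 19.99 FPKM in both.

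*Parp14* encodes a large macrodomain protein that adds single ADP-ribose units and acts in IL-4 and interferon signalling of macrophages. It had 42.0, 41.0 and 39.1 FPKM in K7M2-EV replicates 1 to 3, against 16.9, 15.1 and 14.7 FPKM in PBS replicates 1 to 3. Every vesicle library was more than double any PBS library. The log2 fold change was 1.33 (SE 0.0665, 95% interval 1.17 to 1.49, limma adjusted p = 1.90e-05), the largest of the 9 and ranked 421 of 13009 genes.

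*Parp12* encodes a zinc-finger transferase of single units that restricts several viruses. It was at 27.5, 28.7 and 26.0 FPKM with vesicles and at 12.8, 11.9 and 12.6 FPKM with PBS. The groups stood well apart and each was tight. Its log2 fold change came to 1.08 (SE 0.0576, 95% interval 0.94 to 1.22, limma adjusted p = 2.40e-05).

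*Parp9* and *Dtx3l* encode the partners of a complex that modifies histones and acts in antiviral responses. *Parp9* had 13.7, 16.1 and 12.5 FPKM in the K7M2-EV libraries, against 6.72, 6.69 and 6.04 FPKM in the PBS libraries. *Dtx3l* had 18.8, 19.1 and 16.6 FPKM with vesicles, against 10.6, 8.49 and 9.25 FPKM with PBS. For both genes the vesicle libraries lay above all PBS libraries. The log2 fold changes were 1.01 for *Parp9* (SE 0.0945, limma adjusted p = 0.000237) and 0.88 for *Dtx3l* (SE 0.0929, limma adjusted p = 0.000394). Their ratio within a library, *Parp9* over *Dtx3l*, was 0.729, 0.841 and 0.756 with vesicles and 0.633, 0.787 and 0.654 with PBS. These ratios overlapped between the groups (means 0.775 ± 0.0584 and 0.691 ± 0.0840, SD, n = 3 each; two-sided exact permutation p = 0.30, where 0.10 is the smallest this design allows). Within replicate numbers the ratio was higher with vesicles in 3 of 3 pairs, by 0.0965, 0.0535 and 0.103 (two-sided exact sign-flip permutation p = 0.25, the smallest that 3 pairs allow; this pairing was added after the data were seen). Neither form of the test shows whether the ratio differed.

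*Parp10* encodes a transferase of single units that also binds ubiquitin. Its levels were 7.52, 7.90 and 7.25 FPKM with vesicles and 3.68, 3.74 and 2.98 FPKM with PBS, again with a clear gap. This was a log2 fold change of 0.94 (SE 0.0816, limma adjusted p = 0.000169).

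*Parp11*, whose product acts at the nuclear envelope and modifies a ubiquitin ligase that limits interferon receptor levels, moved far less. It was at 2.25, 2.46 and 1.92 FPKM with vesicles and at 1.76, 1.86 and 1.81 FPKM with PBS. The groups did not overlap, but K7M2-EV replicate 3 came close to the PBS libraries. The log2 fold change of 0.19 was not called (SE 0.0794, 95% interval -0.0036 to 0.38, limma adjusted p = 0.0884). It was called after median-of-ratios scaling (0.32, adjusted p = 0.0119), after quantile normalization (0.38, adjusted p = 0.00511) and without K7M2-EV replicate 3 (0.25, adjusted p = 0.0396). 

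Among the DNA damage genes, *Parp1*, which makes most of the cell's poly(ADP-ribose), had 19.8, 17.9 and 18.5 FPKM with vesicles and 17.5, 18.7 and 19.99 FPKM with PBS. The groups overlapped fully. The fitted log2 fold change was 0.0039 (SE 0.0672, limma adjusted p = 0.966), with a 95% interval of -0.16 to 0.17. It was 0.19 after median-of-ratios scaling and -0.016 after quantile normalization, and not called in either.

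*Parp2*, the second DNA break sensor, was at 2.95, 2.96 and 3.00 FPKM with vesicles and at 3.58, 4.22 and 4.10 FPKM with PBS. Every vesicle library was below every PBS library. The log2 fold change was -0.32 (SE 0.0673, 95% interval -0.48 to -0.16, limma adjusted p = 0.00720). The call was lost after median-of-ratios scaling (-0.17, adjusted p = 0.0630), after quantile normalization (-0.18, adjusted p = 0.0613) and when replicate 3 of each group was omitted (-0.31, adjusted p = 0.0909).

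*Parp8* was at 2.43, 2.74 and 2.34 FPKM with vesicles and at 3.60, 3.75 and 3.00 FPKM with PBS. The gap between the groups was narrow, with PBS replicate 3 the lowest of its group. The log2 fold change was -0.34 (SE 0.0873, limma adjusted p = 0.0161). Its call was lost after median-of-ratios scaling (adjusted p = 0.0764) and quantile normalization (0.113). Leaving out K7M2-EV replicate 1 (0.0534) or 3 (0.0583), PBS replicate 1 (0.0519) or both libraries of replicate 1 (0.127) also ended it.

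The scaling of the libraries matters for such small changes. Over all genes, the median log2 fold change stood at -0.12 on the deposited scale, 0.037 after median-of-ratios scaling and 0.0001 after quantile normalization. The split of calls moved with it, to 3802 higher and 3012 lower after median-of-ratios scaling and 3135 higher and 3282 lower after quantile normalization, against 2395 higher and 4631 lower as deposited. Relative to that median, *Parp2* was at -0.21, -0.21 and -0.18 in the deposited, median-of-ratios and quantile values. *Parp8* was at -0.23, -0.24 and -0.18 and *Parp11* at 0.30, 0.28 and 0.38. *Parp1* stood at 0.12, 0.15 and -0.016, so its place relative to other genes changed sign with quantile normalization. For *Parp14* the same values were 1.45, 1.48 and 1.29. The 5 risers were called under each of 16 alternatives, and the same 5 genes were called each time.

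**Figure D2:**
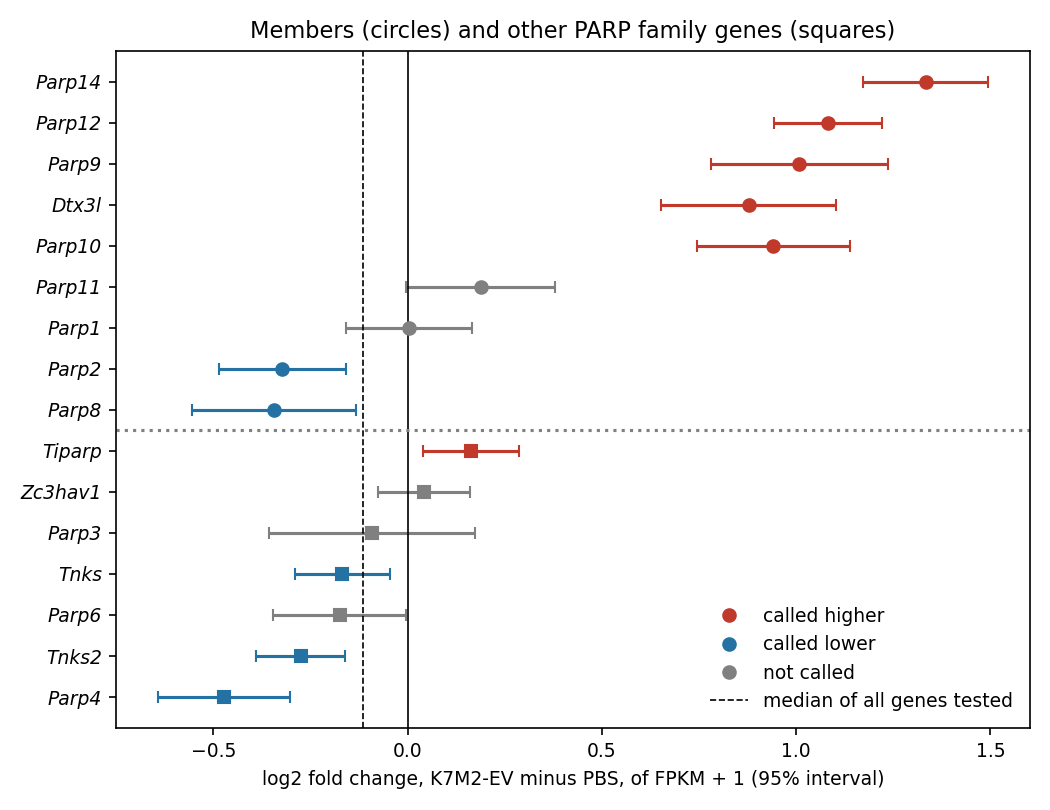
Log2 fold change of FPKM + 1, K7M2-EV minus PBS, with 95% intervals from limma, for the 9 members (circles) and 7 other tested PARP family genes (squares). The intervals of *Parp14*, *Parp12*, *Parp9*, *Dtx3l* and *Parp10* lie above 0.65, and those of all the others end below 0.38.

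Taken within replicate numbers, the difference of K7M2-EV minus PBS on the log2(FPKM + 1) scale was positive in 3 of 3 pairs for all 6 interferon-type genes. For *Parp14* it was 1.26, 1.38 and 1.35 in replicates 1 to 3, and for *Parp11* 0.23, 0.27 and 0.056. It was largest in replicate 2 for 5 of the 6 genes, though by little for *Parp14* and *Parp11*. *Parp10* was the exception. These genes vary together, and the share of all genes with their largest difference in replicate 2 was not computed. Replicate 2 also had the highest sum of mesenchymal markers, and a link between the 2 was not tested. *Parp2* was lower in all 3 pairs, by -0.21, -0.40 and -0.35, and *Parp1* had 0.17, -0.059 and -0.10. Without both libraries of replicate 2, the 5 risers were still called.

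The order of the levels changed between the groups. With vesicles it ran *Parp14* (40.7 FPKM), *Parp12* (27.4), *Parp1* (18.8), *Dtx3l* (18.2), *Parp9* (14.1), *Parp10* (7.56), *Parp2* (2.97), *Parp8* (2.502) and *Parp11* (2.21). With PBS, *Parp1* was the most abundant (18.7 FPKM), followed by *Parp14* (15.6), *Parp12* (12.4), *Dtx3l* (9.45), *Parp9* (6.48), *Parp2* (3.97), *Parp10* (3.47), *Parp8* (3.45) and *Parp11* (1.81). Neighbours whose libraries overlapped were *Parp1* with *Dtx3l* and *Parp8* with *Parp11* in K7M2-EV cells. In PBS cells they were *Parp2* with *Parp10* and *Parp10* with *Parp8*. All other neighbours in each order were separated in all 3 libraries.

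Summed, the 9 members came to 134 ± 6.24 FPKM with vesicles and 75.3 ± 1.54 FPKM with PBS (SD, n = 3 each). The 6 interferon-type genes made up 110 ± 6.12 FPKM with vesicles, against 49.2 ± 2.84 FPKM with PBS. *Parp1* and *Parp2* together made up 21.7 ± 0.962 FPKM and 22.7 ± 1.54 FPKM. The share of the interferon-type genes in the sum was 81.9% ± 0.933 with vesicles and 65.3% ± 2.42 with PBS, and that of the DNA damage genes 16.2% ± 1.02 and 30.2% ± 2.60. The ratio of these sums, interferon-type over DNA damage, was 4.91, 5.52 and 4.80 in the K7M2-EV libraries and 2.49, 2.08 and 1.97 in the PBS libraries. It is given as a description and was not tested. *Parp14* alone held 37.0% ± 1.24 of the interferon-type sum with vesicles and 31.6% ± 0.593 with PBS. Without it the ratio averaged 3.20 with vesicles and 1.49 with PBS.

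**Figure D3:**
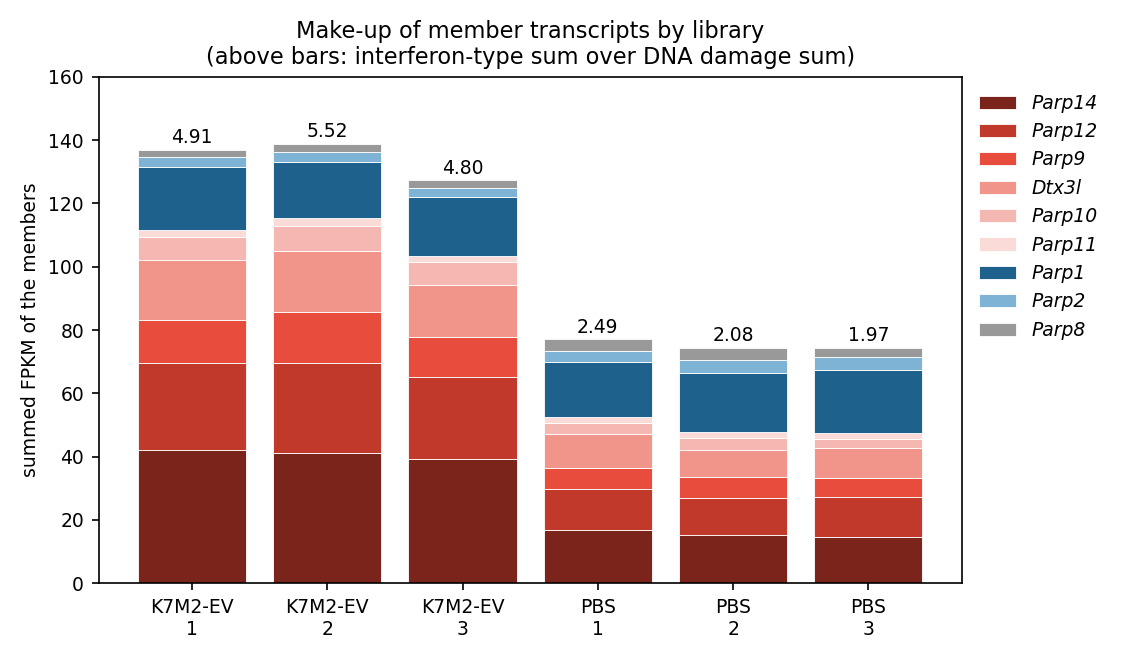
Summed FPKM of the 9 members in each library, with interferon-type genes in reds, *Parp1* and *Parp2* in blues and *Parp8* in grey; the number above each bar is the interferon-type sum over the DNA damage sum. The K7M2-EV bars reach 127 to 139 FPKM and the PBS bars 74.4 to 77.1 FPKM, while the blue part stays between 20.9 and 24.1 FPKM.

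The risers *Parp14*, *Dtx3l* and *Parp9* are neighbours on chromosome 16, so the other tested genes within 100 kb of them were examined. On the *Parp14* side, *Dirc2*, a membrane transporter gene, fell to 1.82 ± 0.0557 FPKM with vesicles, against 4.19 ± 0.0472 FPKM with PBS (log2 fold change -0.88, limma adjusted p = 3.69e-05). On the *Parp9* side, the importin gene *Kpna1* was at 3.22 ± 0.0399 and 2.82 ± 0.0980 FPKM and did not pass the test (0.14, limma adjusted p = 0.0577). *Wdr5b* fell by 0.28 (limma adjusted p = 0.0351), and *Fam162a* (0.33, limma adjusted p = 0.108) and *Ccdc58* (0.051, limma adjusted p = 0.584) were not called. *Hspbap1*, between *Dirc2* and *Parp14*, missed the filter at 0.608 FPKM with vesicles and 0.685 FPKM with PBS. None of the 5 tested neighbours was called higher, beside 18.4% of all genes tested, while all 3 members of the locus were. So few neighbours cannot show whether the rise was particular to the members.

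**Figure D4:**
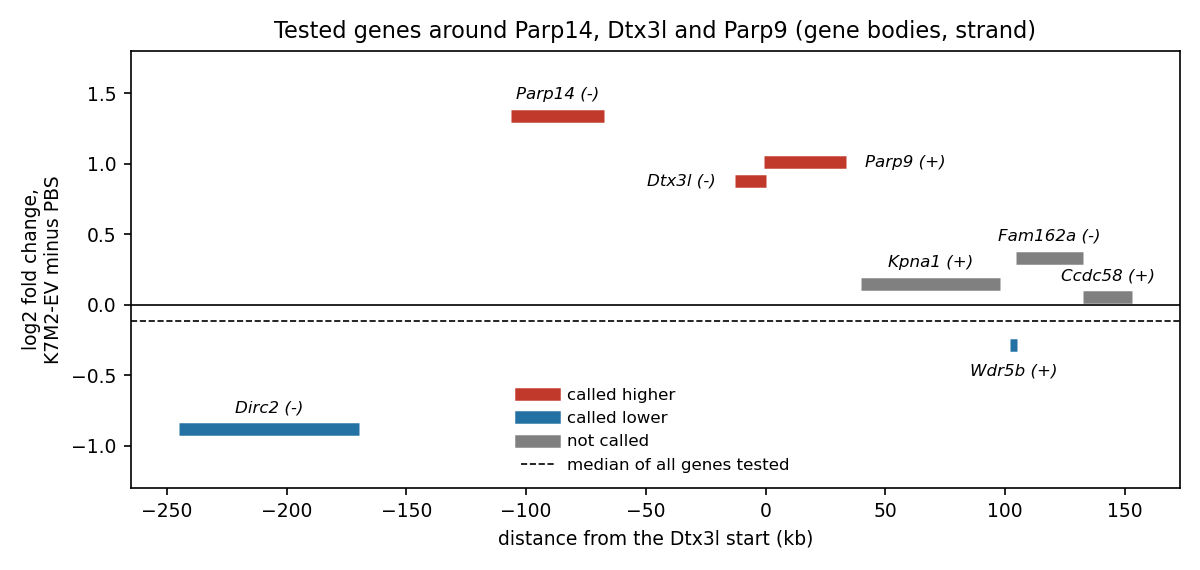
Log2 fold change of the tested genes around *Parp14*, *Dtx3l* and *Parp9*, drawn as gene bodies by distance in kb from the *Dtx3l* start, with strand in brackets. The 3 members sit at 0.88 to 1.33 and their neighbours between -0.88 and 0.33.

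Of 8 other genes of the PARP family, 7 passed the filter. Of these 7, 1 was called higher, 3 lower and 3 not called, beside 18.4% higher and 35.6% lower over all genes. The median log2 fold change of the 7 was -0.17, beside -0.12 for all genes. The split was 2 higher and 1 lower after median-of-ratios scaling and 1 higher and 2 lower after quantile normalization. *Parp4*, whose product is the vault particle PARP, had 9.11, 8.43 and 8.77 FPKM with vesicles and 13.6, 11.4 and 12.7 FPKM with PBS. All its vesicle libraries were lower. The fall of 0.47 on the log2 scale (limma adjusted p = 0.00176) was called under all 16 alternatives. The tankyrase gene *Tnks2*, whose product acts on telomere and Wnt pathway proteins, fell to 11.1 ± 0.343 FPKM, against 13.6 ± 0.358 FPKM with PBS (-0.27, limma adjusted p = 0.00320). This call was lost after median-of-ratios scaling (-0.095, adjusted p = 0.193).

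The other tankyrase gene, *Tnks*, was at 6.96 ± 0.213 FPKM with vesicles and 7.94 ± 0.303 FPKM with PBS (-0.17, limma adjusted p = 0.0299). *Tiparp*, a target of the aryl hydrocarbon receptor also known as PARP7, was at 9.79 ± 0.105 FPKM and 8.64 ± 0.445 FPKM (0.16, limma adjusted p = 0.0356). Neither call was stable. *Tiparp* lost it under 9 and *Tnks* under 10 of 16 alternatives, among them for both the removal of any K7M2-EV library or of PBS replicate 2 or 3, and *Tnks* was at 0.0030 after median-of-ratios scaling. *Zc3hav1*, the antiviral zinc-finger protein also known as PARP13 or ZAP, was at 23.8 ± 0.320 and 23.1 ± 0.843 FPKM and did not pass (0.042, limma adjusted p = 0.500). It was called higher after median-of-ratios scaling (0.23, adjusted p = 0.00819) and was at -0.0017 after quantile normalization. *Parp3*, another DNA break PARP, was at 1.31 ± 0.240 and 1.46 ± 0.251 FPKM (limma adjusted p = 0.514). *Parp6* was at 1.43 ± 0.0630 and 1.74 ± 0.168 FPKM (limma adjusted p = 0.0784). *Parp16*, an endoplasmic reticulum PARP, missed the filter, at 0.332, 0.385 and 0.475 FPKM with vesicles and 0.752, 0.794 and 0.896 FPKM with PBS.

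Among genes whose products remove or process ADP-ribose, 8 of 10 were tested, and 5 were lower, 1 higher and 2 not called (median log2 fold change -0.28), beside 35.6% lower and 18.4% higher over all genes. After either scaling, or without PBS replicate 3, 3 of the 8 were lower. *Macrod1*, a mitochondrial macrodomain hydrolase gene, was at 1.65 ± 0.246 FPKM with vesicles and 5.99 ± 0.714 FPKM with PBS (-1.40, limma adjusted p = 8.68e-05). The ectoenzyme gene *Enpp1* fell by 0.68 and *Oard1*, another macrodomain hydrolase gene, by 0.58. *Parg*, chosen once its values were known, encodes the main hydrolase of poly(ADP-ribose) and stood at 3.19 ± 0.120 and 3.87 ± 0.142 FPKM (-0.22, limma adjusted p = 0.0158).

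Of the partners of PARP1 in strand break and base excision repair, 17 of 18 were tested, and 9 were lower, 3 higher and 5 not called (median -0.31). The same all-gene shares, 35.6% lower and 18.4% higher, also run more often lower than higher. After either scaling 6 were lower, with 5 higher after median-of-ratios scaling and 4 after quantile normalization. The lower count was 5 without PBS replicate 2, 4 without PBS replicate 3, 5 without both libraries of replicate 1 or of replicate 2, and 1 without both of replicate 3. The glycosylase gene *Neil3* fell to 0.297 ± 0.122 FPKM, against 2.98 ± 0.439 FPKM with PBS (-1.62, limma adjusted p = 6.29e-05). The ligase gene *Lig1* fell to 3.21 ± 0.904 FPKM, against 9.56 ± 2.35 FPKM, and the flap endonuclease gene *Fen1* to 1.16 ± 0.186 FPKM, against 3.44 ± 1.58 FPKM. *Lig1* and *Fen1* also serve DNA replication. All 19 tested genes of the DNA replication list were lower (median -0.91), 17 of them after quantile normalization and 8 without both libraries of replicate 3. *Rrm2*, *Pcna* and *Mcm6* fell by 2.25, 2.16 and 1.46 on the log2 scale. The 12 cell division markers summed to 21.0 to 42.6 FPKM with vesicles and 114 to 181 FPKM with PBS. Their part in the lower *Parp2* and repair gene levels was not tested.

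PARPs draw on NAD+, and the genes of its supply and use split both ways. Of 11 tested of 15, 4 were higher, 4 lower and 3 not called (median -0.023), beside 18.4% higher and 35.6% lower over all genes. The lower count was 2 after either scaling, with a filter of 1 FPKM in all 6 libraries, and without K7M2-EV replicate 1, PBS replicate 1 or PBS replicate 3. The higher count was 5 after quantile normalization. It was 3 with that filter or without any 1 K7M2-EV library, where *Cd38* missed the filter and was no longer tested. *Cd38*, an ectoenzyme that consumes NAD+, was at 37.9, 36.0 and 34.2 FPKM with vesicles and 0.0877, 0.248 and 0.0938 FPKM with PBS. That rise of 5.02 on the log2 scale (limma adjusted p = 4.39e-07) far exceeded any change among the PARPs. *Bst1*, a related ectoenzyme gene, reached 27.9 ± 1.61 FPKM, against 3.72 ± 0.0817 FPKM with PBS. *Nadk*, which makes NADP+ from NAD+, reached 58.1 ± 9.17 FPKM, against 15.2 ± 0.481 FPKM. *Nampt*, the rate-limiting gene of NAD+ salvage and also chosen once its values were known, stood at 28.6 ± 0.623 and 15.8 ± 0.765 FPKM (0.82, limma adjusted p = 4.95e-05).

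Of 12 tested genes of interferon signalling, 5 were higher, 2 lower and 5 not called (median 0.23), beside 18.4% higher and 35.6% lower over all genes. The higher count was 8 after median-of-ratios scaling and 6 after quantile normalization, where the all-gene count rose from 2395 to 3802 and 3135. The 2 lower genes were *Ifngr1* (-0.68, limma adjusted p = 0.000745) and *Irf1* (-0.47, limma adjusted p = 0.0111). *Irf7*, a transcription factor of the type I response, reached 15.8 ± 1.20 FPKM, against 2.34 ± 0.349 FPKM with PBS (2.33, limma adjusted p = 8.70e-06). The kinase gene *Jak2* reached 37.5 ± 1.91 FPKM, against 10.3 ± 0.284 FPKM with PBS. *Ifng*, the gene of interferon-γ itself, missed the filter at 0.0524 FPKM or less in every library. Of the 15 genes listed, 13 had values. The type I interferon genes *Ifnb1* and *Ifna4* had none, so their levels could not be read. Among the other Deltex genes *Dtx2* rose to 6.03 ± 0.447 FPKM, against 1.61 ± 0.201 FPKM with PBS (1.43, limma adjusted p = 3.15e-05). *Dtx4* was called higher as well (0.30, limma adjusted p = 0.0224), and *Dtx3* fell by 0.79. The *Dtx4* call was lost after quantile normalization and when any of K7M2-EV replicate 1 or 3 or PBS replicate 2 or 3 was left out.

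**Figure D5:**
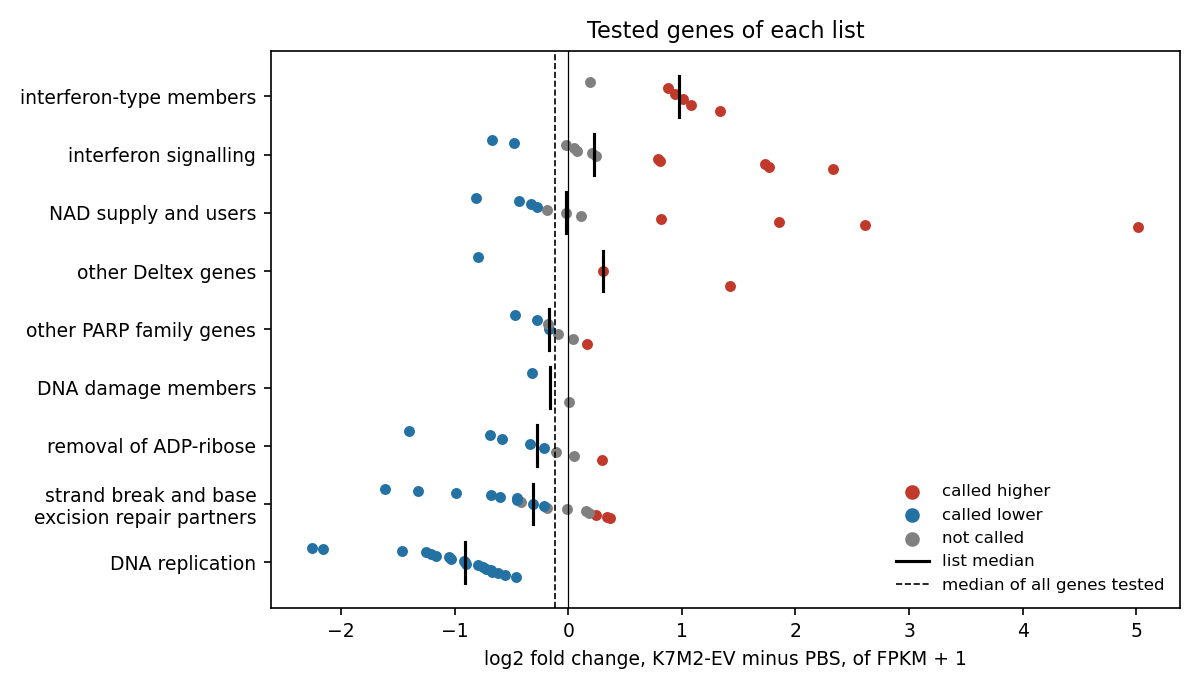
Log2 fold change of FPKM + 1, K7M2-EV minus PBS, for each tested gene of 9 lists, with the list median as a bar and the median of all genes tested (-0.12) as a dashed line. The DNA replication genes lie between -2.25 and -0.46, and the interferon-type members between 0.19 and 1.33.

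Across the 6 libraries, the genes most like *Parp14* among 5331 compared (mean of at least 5 FPKM) were *Wfdc21*, *Znfx1*, *Wfdc17*, *H2-T24* and *Trim30a*, with Pearson r of 0.9988 to 0.9997. All 5 were higher with vesicles, by log2 fold changes of 0.85 (*Znfx1*) to 3.57 (*Wfdc21*). The same measure named *Syngr2*, *Arf3*, *Vps16*, *Dnajc30* and *Limd1* as most like *Parp1*, with r of 0.925 to 0.969, and none of these was called. Among the members themselves, the 5 risers correlated at 0.966 to 0.996 with one another, and *Parp11* with them at 0.798 to 0.882. These values are descriptions over 6 libraries that share 1 group difference.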

How the data were processed

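RNA of 6 macrophage libraries was sequenced. What the authors deposited is 1 table of FPKM for each library (26883 rows). HISAT2 2.1.0, StringTie 1.3.4b, CASAVA 1.8, edgeR and the build GRCm38 appear in the submitters' processing notes with no role given. Groups came from the sample titles. A row without a value (1) and 47 repeated symbols were dropped (keeping the one of highest mean), leaving 26835 genes. FPKM times exon length (GENCODE M21) lay within 0.1 of a whole number of reads in 72.1% to 73.0% of values worth at most 20 reads, which gave the implied totals; intervals from them cover counting error only.

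The test was limma 3.58.1 (R 4.3.3, statmod 1.5.0, trend and robust settings) on log2(FPKM + 1), for the 13009 genes that reached 1 FPKM in 3 or more libraries. Fold changes on this scale understate those of low genes. Members and lists were chosen with earlier results of these data known. All members and other PARP family genes were named, with the 3 largest called changes of each list, of which 1 is not reported here. Steps were tested on simulated data. Same-numbered libraries deviated together (r = 0.317, 0.294 and 0.209), though no label states a pairing. The main limma fit did not use pairs. The numbers were taken as pairs only in the replicate block, the comparisons within replicate numbers and the omission of both libraries of a number. Tables and plots were made in Python 3.11.15 (matplotlib 3.10.9, pandas 2.3.3, numpy 2.4.6). Alternatives were other pseudocounts, filters, scalings and variance settings, a replicate block and left-out libraries.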

Additional observations from a re-analysis of the deposited data

How the results depend on the processing

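The 5 called rises held under all 16 alternatives, and 5 or 6 members were called higher in each. The count of lower members (2) depended more on the choices. It was 0 after median-of-ratios scaling and after quantile normalization (limma; 2 and 1 at an unadjusted p under 0.05). It ran from 1 to 2 with any 1 library left out (1 without K7M2-EV replicate 1 or 3 or PBS replicate 1) and from 1 to 2 with both libraries of a number left out (1 without replicate 1 or 3). Over all genes, 3802 were higher and 3012 lower after median-of-ratios scaling. Leaving out both libraries of a number gave 1283 to 2082 higher and 2186 to 3333 lower, against 1772 to 2390 and 3296 to 4253 for any 1 library. Fewer samples entered those fits. The filter of 1 FPKM in 3 libraries was kept, so fewer genes were tested as well. These were 11638 to 11859 without both libraries of a number and 12211 to 12719 without any 1 library, against 13009. With the replicate number as a block, 2495 genes were higher and 4787 lower, 5 members were higher and 2 lower, and no call of a member changed. Without *Parp14* the ratio of summed interferon-type to DNA damage genes moved to 3.20 with vesicles and 1.49 with PBS, by construction of a smaller sum.

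Signs reversed only in genes that were not called or had small changes. *Parp1* was at -0.016 after quantile normalization and between -0.081 and 0.19 over the alternatives, below 0 also without K7M2-EV replicate 1 (-0.034), PBS replicate 1 (-0.043) or both (-0.081, against 0.057 without both of replicate 3). *Parp3* was at 0.021 after median-of-ratios scaling and 0.12 after quantile normalization, *Parp6* at 0.038 and *Zc3hav1* at -0.0017 after quantile normalization, and *Tnks* at 0.0030 after median-of-ratios scaling. The cause was not tested. With 3 libraries a group and changes under 0.4 on the log2 scale, the calls of *Parp2*, *Parp8* and *Parp11* changed with the library scaling. They also changed with the libraries left out.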
